A study of Homo sapiens with 21 samples.

Results

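The 49 genes described here lie on distal chromosome 22q, from TOB2 to SCO2. A further 55 measured genes of that stretch are not among the 49. The values come from U-87MG, an established line of human glioblastoma cells. The 49 were chosen as neighbouring genes with the differences of the clones from vector clone V22 in view, so these differences are given as a description. Limma's calls among the 49 are printed as counts beside the share of all probe sets called, and nothing is read from them. Of the 49 genes, among 18374 genes that had a probe set with a single symbol, 46 had a probe set of their own. SNU13 and PRR5 were represented only by a probe set with several symbols and MCAT by none that is listed, so these 3 have no value here. Medians over the genes were taken over the 38 with a mean log2 intensity above 7 on the 21 arrays. The other 8 measured genes were TTLL1 (6.92), FAM118A (6.98), GRAMD4 (6.95), PPARA (6.80), MAPK11 (6.21), FBLN1 (6.01), BIK (5.24) and SEPTIN3 (5.16). TUBGCP6 at 7.02 was the nearest gene inside the threshold, and FAM118A at 6.98 the nearest outside it.

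Total RNA came from single clones of U-87MG that stably expressed parkin (PK7, PK19 and PK25) or carried the vector alone (V8, V17 and V22), seeded alike and grown for 24 hours without further treatment. The promoter of the construct is not given in the sources used here. Each clone had 3 arrays, called sets in the labels, and V22 had 3 more. The arrays carry 2 kinds of scanner name, read here as a first series (V8, V17 and V22, sets 1 to 3) and a second series (PK7, PK19 and PK25, sets 1 to 3, and V22, sets 4 to 6). Every clone was therefore set against the 3 V22 arrays of its own series, and PK7, PK19 and PK25 share the same V22 arrays. Arrays of a clone may be repeats of 1 culture, so their spread may be technical, and a clone is 1 clone whatever its number of arrays. The introduced gene itself was not analysed here.

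A cell carries a copy of chromosome 22 from each parent, and neighbouring genes on it share copy number whatever their function. Glioma cell lines commonly carry gains and losses of whole chromosomes or arms, and single-cell clones of 1 line can differ in them. The region from TOB2 to SCO2 holds genes of unrelated roles, among them DNA repair, splicing, mitochondrial import and lipid signalling. The arrays measured RNA only, so copy number was not measured in these clones, and fewer copies and less RNA per copy cannot be told apart.

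The values are RMA intensities, used as log2, and 1 unit is a doubling. Array medians over 26947 probe sets lay between 6.21 and 6.37. Genes typical of mesenchymal glioma cells were bright, with a mean of 12.80 for FN1, 12.76 for VIM and 11.84 for CD44 on the log2 scale, and NES stood at 7.51. The astrocyte and oligodendrocyte lineage genes GFAP (6.29), SOX10 (6.37) and OLIG2 (5.66) stood near or below the array medians. The blood marker PTPRC (3.12), the endothelial marker PECAM1 (4.75) and the epithelial marker EPCAM (4.85) were dim.

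Over the 38 genes, the median log2 difference from V22 was -0.51 in PK7, a ratio of 0.704. It was -0.26 in PK25 (ratio 0.835), -0.20 in V8 (ratio 0.873), -0.06 in PK19 (ratio 0.958) and 0.01 in V17. All 38 genes were below V22 in PK7, 36 in V8, 35 in PK25, 23 in PK19 and 16 in V17. The vector clone V8 thus stood next to PK25, and the parkin clone PK19 nearer to V17 than to PK7. In RNA of a whole culture, fewer cells that express a gene and less RNA per cell cannot be told apart. Among all 8716 placed genes above 7 the medians were -0.05 in PK7, -0.03 in PK25, -0.01 in V8, -0.02 in PK19 and 0.02 in V17.

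**Figure D1:**
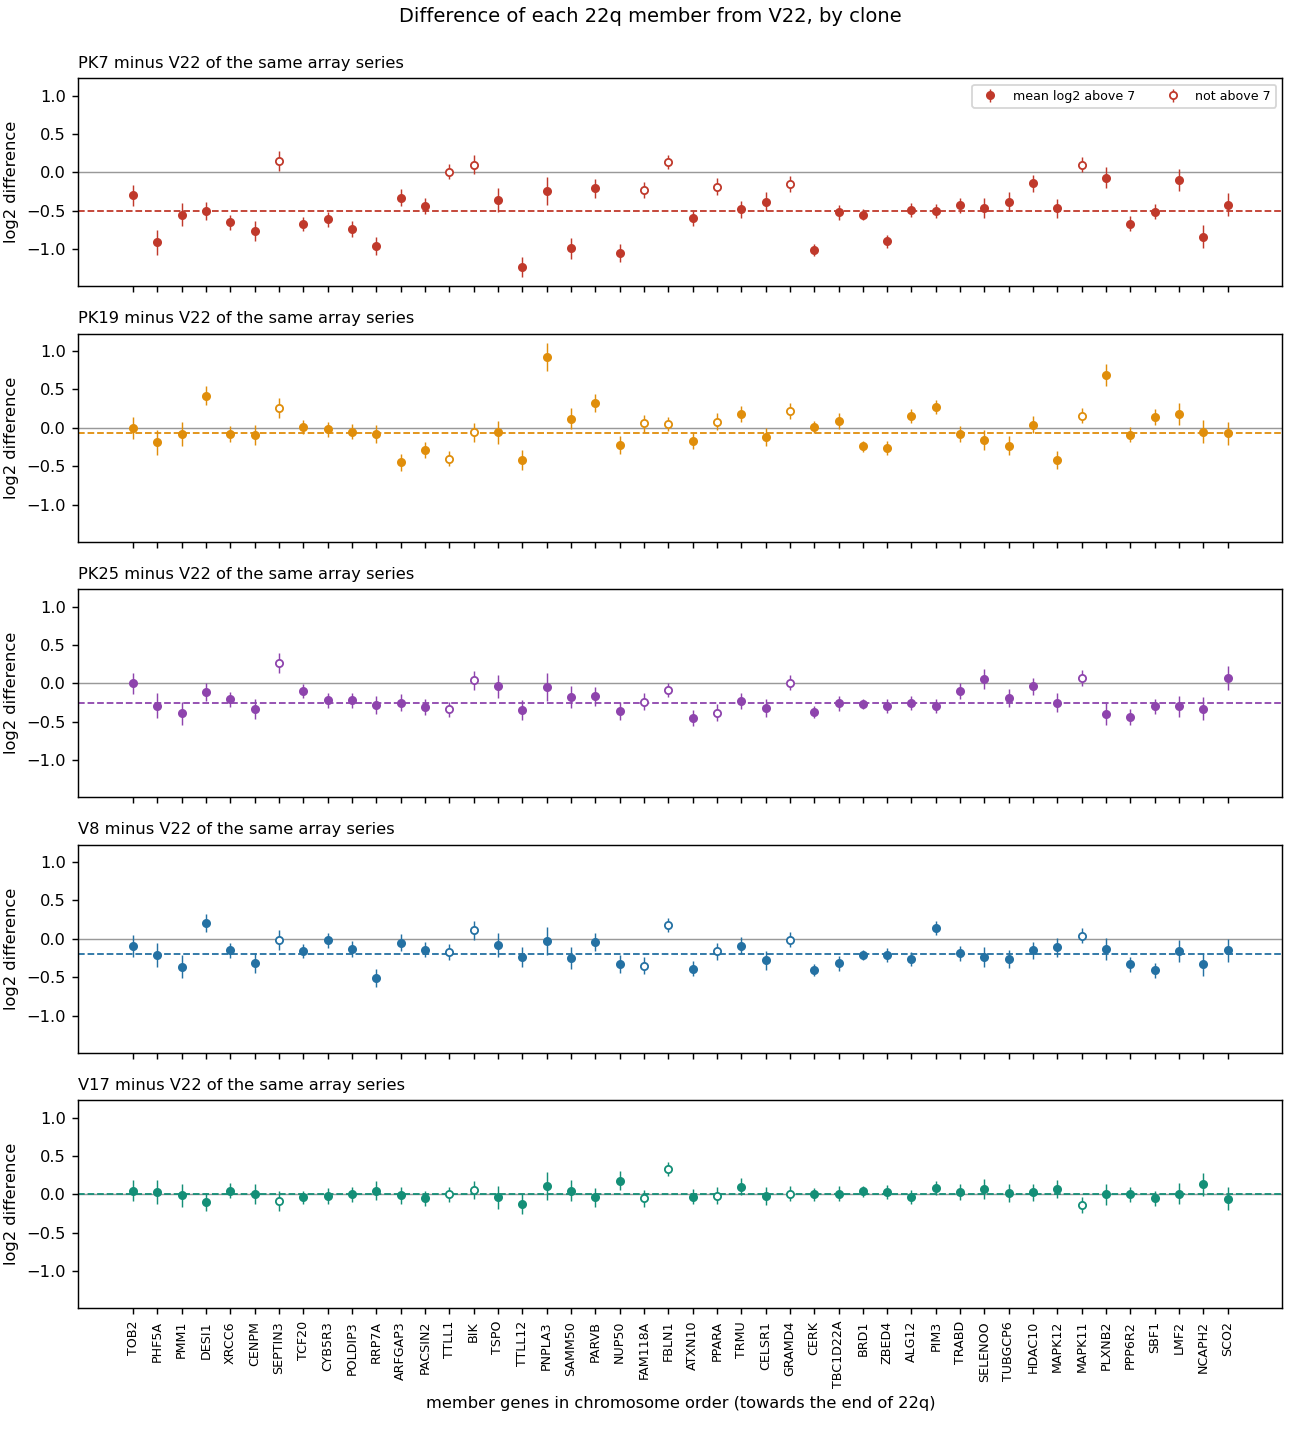
Log2 difference (y axis) of each of the 46 measured genes from V22 of the same array series, in chromosome order from TOB2 to SCO2 (x axis), with a panel for each clone. CYB5R3, POLDIP3 and RRP7A are the exception and are drawn in the reverse of their chromosome order. Points are differences of the means of 3 arrays against 3, bars are ± 1 SE, open points are genes with a mean not above 7, and the dashed line is the median of the 38 others, lowest in PK7 at -0.51 and nearest to 0 in V17 at 0.01.

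On single arrays the median of the 38 genes relative to V22 was -0.56, -0.51 and -0.55 on PK7 sets 1 to 3. It was -0.24, -0.27 and -0.27 on PK25 sets 1 to 3, and 0.00, -0.06 and -0.09 on PK19 sets 1 to 3. The V22 arrays of the same series lay at 0.04, -0.04 and 0.04. The 3 PK7 arrays were below all others of that series, and the 3 PK25 arrays lay between them and the rest, with no overlap. Over all placed genes above 7, PK7 set 2 and PK25 set 3 each had a median of -0.11, and the other arrays of that series lay between -0.04 and 0.02. In the first series the median of the 38 genes was -0.10, -0.40 and -0.16 on V8 sets 1 to 3, 0.01, 0.00 and 0.04 on V17 sets 1 to 3, and 0.03, -0.01 and -0.02 on V22 sets 1 to 3. All V8 arrays were below the V17 and V22 arrays, but set 2 stood apart from the other 2, and without it the V8 median over the 38 genes was -0.12.

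**Figure D2:**
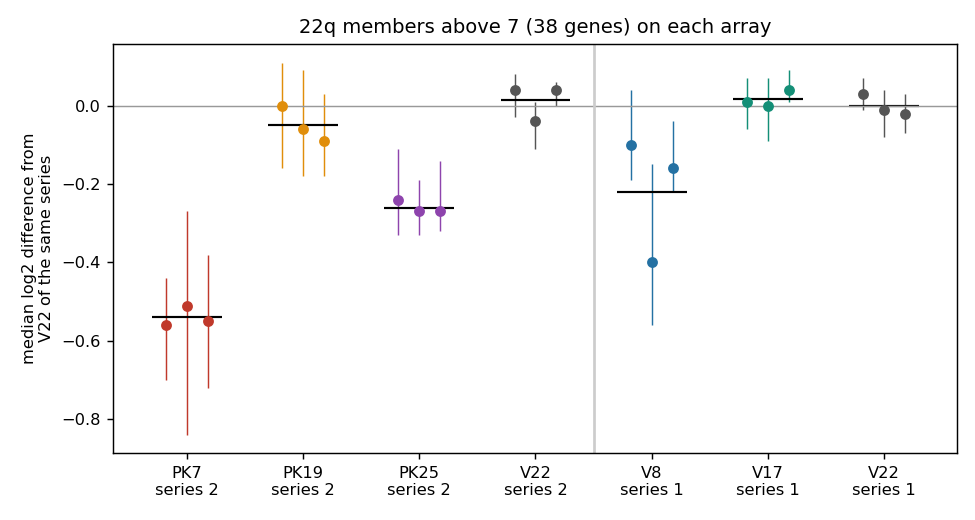
Median log2 difference of the 38 genes from V22 of the same series (y axis) on each of the 21 arrays, grouped by clone and series (x axis). Points are medians over the 38 genes, vertical bars run from the lower to the upper quartile over the genes, and horizontal lines are means over 3 arrays, which were -0.54 ± 0.03 in PK7, -0.26 ± 0.02 in PK25 and -0.22 ± 0.16 in V8 (SD, n = 3 arrays).

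In PK7, limma called 30 of the 46 measured genes lower than V22 and none higher at a p under 0.05 after Benjamini-Hochberg adjustment across the whole table, where 8.11% of all probe sets were called lower. All 3 PK7 arrays lay below all 3 V22 arrays in 34 genes, which held for 16.9% of all probe sets. The genes differed among themselves: 19 were more than 0.5 away from V22 and 3 more than 1. The 8 genes that did not pass the level of 7 lay between -0.23 and 0.15, and none was called. Of all placed genes above 7, 17.5% were called lower in PK7, and of the 150 genes above 7 on the centromere side of TOB2, 71.3%. The counts by role given below stand beside these shares, and no role was tested against another.

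The largest PK7 difference was that of TTLL12, a member of the tubulin tyrosine ligase family. Its log2 values were 7.77, 7.31 and 7.60 on the PK7 arrays, against 8.90, 8.69 and 8.80 on the V22 arrays of that series. The groups did not overlap, and the difference was -1.23 (SE 0.13), a ratio of 0.426. All arrays of PK19, at 8.46, 8.16 and 8.50 (difference -0.42), and of PK25, at 8.46, 8.28 and 8.60 (-0.35), were below the same V22 arrays. In V8 it was at 8.82, 8.50 and 8.58, against 8.87, 9.01 and 8.71 in V22 of the first series, and these groups overlapped.

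NUP50, a nucleoporin of the nuclear basket, came next. Its log2 values were 7.38, 7.08 and 7.40 in PK7, against 8.33, 8.32 and 8.35 in V22 (difference -1.05, SE 0.12, ratio 0.484). All 3 PK25 arrays, at 8.00, 7.89 and 8.05, and all 3 PK19 arrays, at 8.31, 7.99 and 8.05, were also below these V22 arrays. CERK, the ceramide kinase that makes ceramide-1-phosphate, was the third gene past 1 unit in PK7. It was at 8.77, 8.54 and 8.75 in PK7, 9.33, 9.35 and 9.30 in PK25 and 9.77, 9.62 and 9.73 in PK19, against 9.76, 9.59 and 9.73 in V22. PK7 and PK25 each lay wholly below V22, and PK19 overlapped with it. CERK stood at 9.29, 9.17 and 9.19 in V8 and 9.62, 9.60 and 9.66 in V17, against 9.68, 9.65 and 9.56 in V22 of the first series, so V8 was again apart and V17 was not. The CERK differences were -1.01 in PK7, -0.41 in V8, -0.37 in PK25, 0.01 in PK19 and -0.00 in V17 (SE 0.08 each).

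**Figure D3:**
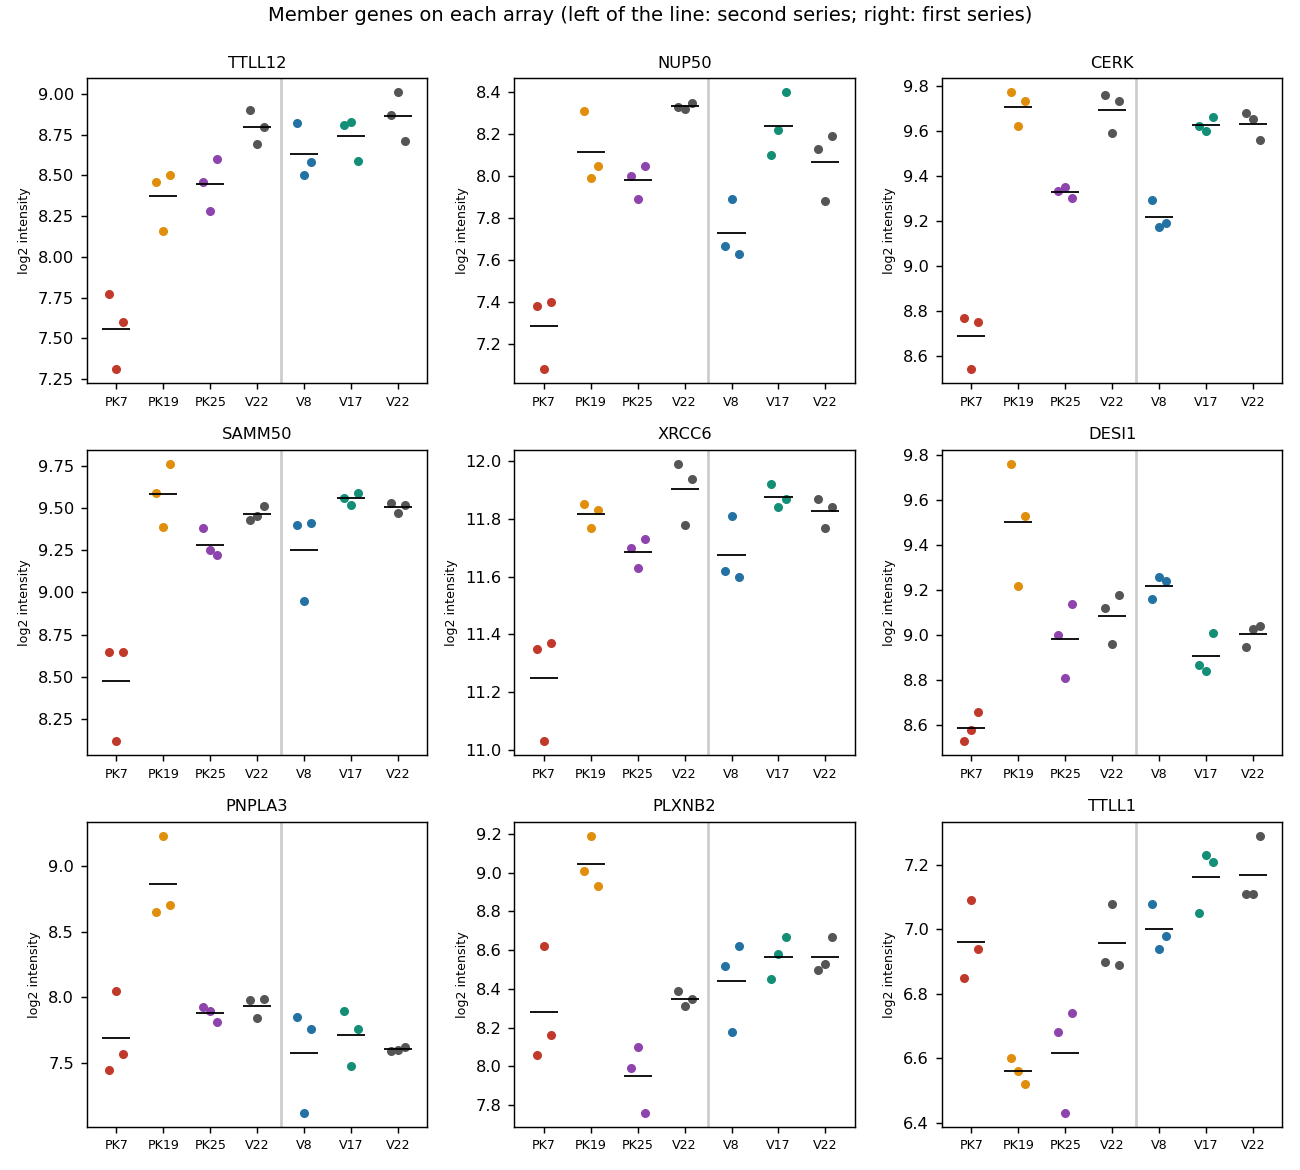
Log2 intensity (y axis, not starting at 0, and scaled for each panel) of 9 of the genes on each array, by clone (x axis), with the second series left of the grey line and the first series right of it. Points are arrays and lines are means of 3 arrays; PK7 lies wholly below V22 for TTLL12, NUP50, CERK, SAMM50, XRCC6 and DESI1, and PK19 wholly above V22 for PNPLA3, PLXNB2 and DESI1.

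The 4 genes of RNA and the ribosome had a PK7 median of -0.94, the lowest among the roles, and all 4 were among the 30 called. Besides NUP50 these were PHF5A, a small subunit of the SF3b splicing complex, RRP7A, which takes part in maturation of the small ribosomal subunit, and POLDIP3, an mRNA export factor (-0.74). PHF5A was at 8.80, 8.01 and 8.64 in PK7, against 9.39, 9.30 and 9.49 in V22, a difference of -0.91 (SE 0.16), with PK7 set 2 the lowest. RRP7A was at 9.07, 8.69 and 9.04 in PK7, against 9.98, 9.71 and 10.00 in V22 (difference -0.96, SE 0.12). In V8 RRP7A was at 9.64, 9.24 and 9.59, against 10.02, 9.95 and 10.03 in V22 of the first series, and its -0.51 was the largest difference among the V8 values. RRP7A has a near-identical copy on the same chromosome arm, RRP7BP, whose probe set differed by -0.85 in PK7, and signal of the 2 cannot be assigned with certainty.

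Of the 7 genes of DNA and chromatin, 6 were called lower in PK7, with a median of -0.67. XRCC6 encodes Ku70, which binds broken DNA ends for repair, and it was the brightest of the 46 genes. Its log2 values were 11.35, 11.03 and 11.37 in PK7, 11.70, 11.63 and 11.73 in PK25 and 11.85, 11.77 and 11.83 in PK19, against 11.99, 11.78 and 11.94 in V22. PK7 and PK25 lay wholly below V22, and the PK7 difference was -0.65 (SE 0.10, ratio 0.637). CENPM, a kinetochore gene, was at 7.97, 7.93 and 7.86 in PK7, against 8.65, 8.72 and 8.70 in V22 (difference -0.77). ZBED4, a zinc finger gene, differed by -0.90 in PK7, NCAPH2, a condensin II subunit, by -0.84, TCF20, a transcriptional coregulator, by -0.67 and BRD1, a scaffold of histone acetyltransferases, by -0.55. HDAC10, a deacetylase known to act on polyamines, was the exception at -0.14. Its mean of 7.14 was close to the level of 7, as was that of BRD1 at 7.34.

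Among the 5 measured mitochondrial genes the PK7 median was -0.46 and 3 were called. SAMM50, the core of the machinery that inserts barrel proteins into the outer mitochondrial membrane, was at 8.65, 8.12 and 8.65 in PK7, against 9.43, 9.45 and 9.51 in V22 (difference -0.99, SE 0.14, ratio 0.504). PK25, at 9.38, 9.25 and 9.22, was also wholly below V22, whereas PK19, at 9.59, 9.39 and 9.76, overlapped. TRMU, which modifies mitochondrial tRNA, differed by -0.48 and SELENOO, a mitochondrial selenoprotein, by -0.46 in PK7. TSPO, a cholesterol-binding protein of the outer mitochondrial membrane, was at 7.72, 7.84 and 7.92 in PK7, against 8.08, 8.17 and 8.30 in V22 (-0.36, not called). SCO2, a copper chaperone of cytochrome oxidase and the last of the 49 genes, was at 6.83, 6.96 and 6.97 in PK7, against 7.49, 7.15 and 7.37 in V22 (-0.42, not called). Both had arrays that did not overlap between PK7 and V22. In PK25 the median of the 5 mitochondrial genes was -0.04, where that of the 38 genes was -0.26. The 5 ranged from -0.23 (TRMU) to 0.07 (SCO2). PK25 set 3 was the highest PK25 array for TSPO, SELENOO and SCO2 and the lowest for SAMM50 and TRMU.

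The 8 measured genes of signalling and growth had a PK7 median of -0.50, taken over the 5 above 7, and 4 were called. Besides CERK these were PPP6R2, a regulatory subunit of protein phosphatase 6 (-0.67), MAPK12, the gamma form of the p38 kinases (-0.47), and PIM3, a growth-promoting serine kinase (-0.50). PIM3 was at 7.97, 7.91 and 7.76 in PK7, 8.01, 8.09 and 8.11 in PK25 and 8.72, 8.55 and 8.66 in PK19, against 8.47, 8.24 and 8.41 in V22. PK7 and PK25 were below every V22 array and PK19 above every one. TOB2, an antiproliferative gene and the first of the 49, was at 7.20, 7.57 and 7.25 in PK7, against 7.49, 7.79 and 7.63 in V22, and the groups overlapped (-0.30, not called). MAPK11, the beta form of p38, PPARA, a fatty acid sensing nuclear receptor, and BIK, a proapoptotic gene, were among the dim genes, at 0.10, -0.19 and 0.10 in PK7.

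Of the 8 genes of membrane traffic, glycosylation and lipid metabolism, 6 were called in PK7, with a median of -0.50. CYB5R3, the NADH reductase of cytochrome b5, was at 9.34, 9.74 and 9.37 in PK7, against 10.20, 10.05 and 10.04 in V22 (-0.61, SE 0.10). TBC1D22A, a gene of the family of Rab GTPase activators, was at 8.32, 8.48 and 8.31 in PK7, against 8.95, 8.79 and 8.93 in V22 (-0.52). PMM1, a phosphomannomutase, was at -0.55, SBF1, a pseudophosphatase of the myotubularin family, at -0.51, ALG12, a mannosyltransferase of N-glycan assembly, at -0.49 and ARFGAP3, a Golgi GTPase activator, at -0.33. Not called were PNPLA3, a lipid droplet protein, at -0.24 and LMF2, a lipase maturation gene, at -0.10. In PK25 all 8 were below V22, between -0.39 and -0.05.

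The 6 measured cytoskeletal genes included 3 called in PK7, TTLL12, PACSIN2 and TUBGCP6, the last a subunit of the gamma-tubulin ring (-0.38). PACSIN2, a membrane-bending F-BAR protein, was at 8.49, 8.25 and 8.39 in PK7, 8.43, 8.67 and 8.47 in PK19 and 8.50, 8.52 and 8.50 in PK25, against 8.89, 8.71 and 8.85 in V22. Every parkin array of PACSIN2 was below every V22 array of that series. PARVB, the adhesion adaptor beta-parvin, was at 8.27, 8.40 and 8.26 in PK7, 8.71, 9.00 and 8.82 in PK19 and 8.47, 8.35 and 8.23 in PK25, against 8.57, 8.41 and 8.59 in V22. PK7 was below every V22 array and PK19 above every one, and PK25 overlapped. TTLL1, a tubulin polyglutamylase, had the smallest PK7 difference of the 46 genes (0.01), with 6.85, 7.09 and 6.94 in PK7, against 6.90, 7.08 and 6.89 in V22. It was lower on all arrays of PK19 (6.60, 6.56 and 6.52) and of PK25 (6.68, 6.43 and 6.74). SEPTIN3, a septin known from neurons, was at 0.15 in PK7, from a dim probe set.

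At the cell surface, PLXNB2, a receptor for semaphorins, and CELSR1, a cadherin of planar polarity, were above 7, and FBLN1, a matrix protein, was dim (0.14 in PK7). CELSR1 was at 6.72, 7.17 and 6.93 in PK7, against 7.22, 7.52 and 7.23 in V22 (-0.38). PLXNB2 was at 8.06, 8.62 and 8.16 in PK7 and 7.99, 8.10 and 7.76 in PK25, against 8.39, 8.31 and 8.35 in V22, so PK7 overlapped with V22 (-0.07) and PK25 did not (-0.40). Among genes of other roles, ATXN10, named for a spinocerebellar ataxia, was at 9.15, 9.04 and 9.12 in PK7 and 9.22, 9.31 and 9.23 in PK25, against 9.68, 9.66 and 9.76 in V22. Its PK7 difference was -0.60 and its PK25 difference -0.45. DESI1, a desumoylating isopeptidase, was at 8.53, 8.58 and 8.66 in PK7, against 9.12, 8.96 and 9.18 in V22 (-0.50), and TRABD differed by -0.43.

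In PK25, limma called 3 of the 46 genes lower, where 0.939% of all probe sets were called lower, and all 3 PK25 arrays lay below all V22 arrays in 29 genes, where this held for 8.51% of probe sets. The 3 were ATXN10, PPP6R2 (-0.44) and CERK. Their count was 0 without PK25 set 1, PK25 set 3, V22 set 4 or V22 set 6, and 1 without V22 set 5. The differences of the 38 genes lay in a narrow range, from -0.45 to 0.07, with an SD over genes of 0.13, where the SD in PK7 was 0.28. Only TOB2 (0.00), SELENOO (0.06) and SCO2 (0.07) of the 38 were not below V22.

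In the vector clone V8, 5 genes were called lower, where 4.22% of all probe sets were, and all V8 arrays were below all V22 arrays in 17 genes, where this held for 12.2% of probe sets. The 5 were RRP7A, CERK, SBF1 (-0.41), ATXN10 (-0.39) and PPP6R2 (-0.33). The V8 count was 1 without V8 set 2, 2 without V22 set 1 and 3 without V22 set 3. DESI1 (0.21) and PIM3 (0.14) were the 2 of the 38 genes above V22 in V8. V8 and the parkin clones share no array, but each is set against clone V22, so a level particular to V22 enters both differences. Across the 38 genes the V8 differences correlated with those of PK7 at r = 0.457 and with those of PK25 at r = 0.443. Both are given as a description over genes of 1 region.

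PK19 had no common direction over the region, and single genes stood on both sides of V22. Limma called 6 genes lower, where 7.40% of probe sets were, and 4 higher, where 6.65% were. The genes called lower were ARFGAP3 (-0.45), TTLL12 and MAPK12 (-0.42 each), TTLL1 (-0.40), PACSIN2 (-0.29) and BRD1 (-0.24), and those called higher were PNPLA3 (0.92), PLXNB2 (0.69), DESI1 (0.42) and PIM3 (0.27). PNPLA3, named here after its values were seen, was at 8.65, 9.23 and 8.70 in PK19, against 7.98, 7.84 and 7.99 in V22, a ratio of 1.9 between groups that were apart. PLXNB2 was at 9.01, 9.19 and 8.93 in PK19 and DESI1 at 9.76, 9.22 and 9.53, in each gene above every V22 array. After quantile normalization 3 were called lower and 4 higher. The count of 10 was 4 without PK19 set 1, 6 without PK19 set 3 and 5 without V22 set 5 or V22 set 6.

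In V17 limma called none of the 46 genes, and 1 had an unadjusted p under 0.05. Over all probe sets it called 0 there, with 730 (2.71%) at an unadjusted p under 0.05. Between the V22 arrays of the second and the first series the median of the 38 genes was -0.03, and 0 of the 46 were called by limma, with 6 at an unadjusted p under 0.05, where 0.0297% of all probe sets were called and 8.75% had such a p.

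Set against each other as groups, the 3 parkin clones and the 3 vector clones differed by a median of -0.23 over the 38 genes, after the series were linked through V22. Limma on the 6 clone means called 0 of the 46 genes, with 5 at an unadjusted p under 0.05 (SEPTIN3, ARFGAP3, PACSIN2, BRD1 and MAPK12). Of all probe sets 1 was called (0.00371%) and 14.1% had such an unadjusted p. All parkin clone means were below all vector clone means in 6 genes (ARFGAP3, PACSIN2, TTLL12, BRD1, ZBED4 and MAPK12), where this held for 10.9% of probe sets, and above them in 2 dim genes (SEPTIN3 and MAPK11), where this held for 12.3%. The largest of these group differences was that of TTLL12, at -0.55 (SE 0.24).

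The lower level did not begin at TOB2. On the centromere side of TOB2, 150 other genes of 22q were above 7, and their medians were -0.55 in PK7, -0.25 in PK25, -0.21 in V8, -0.00 in PK19 and 0.02 in V17. In PK7, 135 of these were below 0, 107 were called lower and 2 higher, where 56.9% of all placed genes above 7 were below 0 and 17.5% were called lower. The nearest of them were RANGAP1, a Ran GTPase activator (-0.62 in PK7, -0.19 in PK25 and -0.27 in V8), EP300, a histone acetyltransferase (-0.60, -0.40 and -0.20), L3MBTL2, a Polycomb-related gene (-0.57, -0.29 and -0.29), ZC3H7B (-0.57, -0.49 and -0.30) and CHADL (-0.05, 0.01 and -0.19), in the order PK7, PK25 and V8 for each gene. CHADL, with a mean of 7.02, was the dimmest of the 5. Between TOB2 and SCO2, 19 further genes above 7 that are not among the 49 had medians of -0.48 in PK7, -0.26 in PK25, -0.28 in V8 and 0.06 in PK19. In PK7, 15 of these 19 were below 0 and 4 above, with 10 called lower and 1 higher. Beyond SCO2, towards the end of the chromosome, none of 7 genes was above 7. The values of the 49 genes are therefore close to those of the rest of the arm, and no difference between them was tested.

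**Figure D4:**
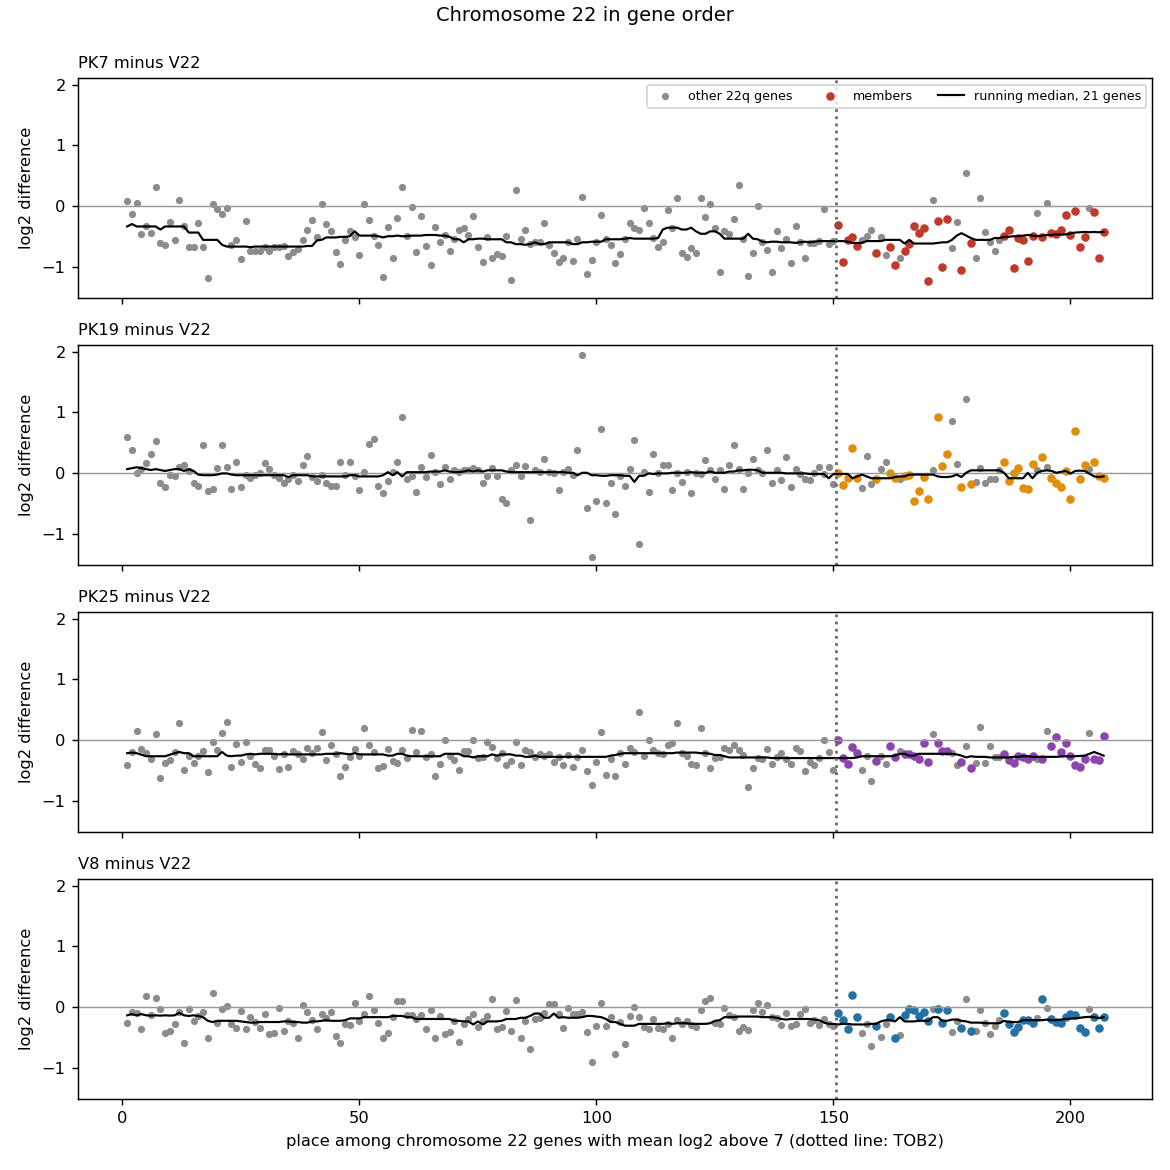
Log2 difference from V22 (y axis) of 207 genes of chromosome 22 with a mean above 7, in chromosome order (x axis, place among these genes), for PK7, PK19, PK25 and V8. Coloured points are the 38 genes from TOB2 to SCO2, grey points the other genes and the black line a running median over 21 genes, which stays below 0 along the chromosome in PK7, PK25 and V8 and near 0 in PK19.

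Split into 3 stretches, the 38 genes had similar medians along the region. The 13 genes from TOB2 to TSPO had medians of -0.61 in PK7, -0.22 in PK25 and -0.14 in V8. The 13 from TTLL12 to ALG12 had -0.55, -0.27 and -0.25 in the same clones, and the 12 from PIM3 to SCO2 had -0.45, -0.28 and -0.17. Across the 38 genes the PK7 difference correlated with the V22 level of the first series at r = -0.392. In PK25 this r was -0.288 and in PK19 -0.0255, all given as descriptions. The differences do not use the arrays of the first series, but clone V22 enters both sides of each correlation.

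Over the 22 autosomes, chromosome 22 had the lowest median of genes above 7 in PK7 (-0.54, with chromosome 21 next at -0.30) and in PK25 (-0.25, with chromosome 14 next at -0.20). In V8 it was the second lowest at -0.21, after chromosome 6 at -0.23. In PK19 it ranked 13 from the lowest, at -0.00. Between the V22 arrays of the second and the first series chromosome 22 was also the second lowest, at -0.05, after chromosome 19 at -0.08. It ranked 2 from the lowest in V17 too, at 0.02, where all autosomes lay between 0.01 and 0.03. Other runs of neighbouring genes differed from V22 too. The 50 genes of 14q from HEATR5A to FERMT2 had a median of -0.85 in PK19, -0.31 in PK25 and -0.30 in PK7, and the 50 genes of 13q from OBI1 to CHAMP1 had -0.73 in V8, -0.26 in PK25 and -0.00 in PK7. In PK25 all 50 genes of 14q and 47 of the 50 of 13q were below 0, beside 35 of the 38 genes from TOB2 to SCO2, whose median there was -0.26. The 50 genes of 12p from FOXJ2 to CCDC91 went the other way, with medians of 0.64 in V8, 0.32 in PK7, 0.31 in PK25 and 0.25 in PK19. In PK25, 47 of these 50 were above 0. The runs are given as examples.

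**Figure D5:**
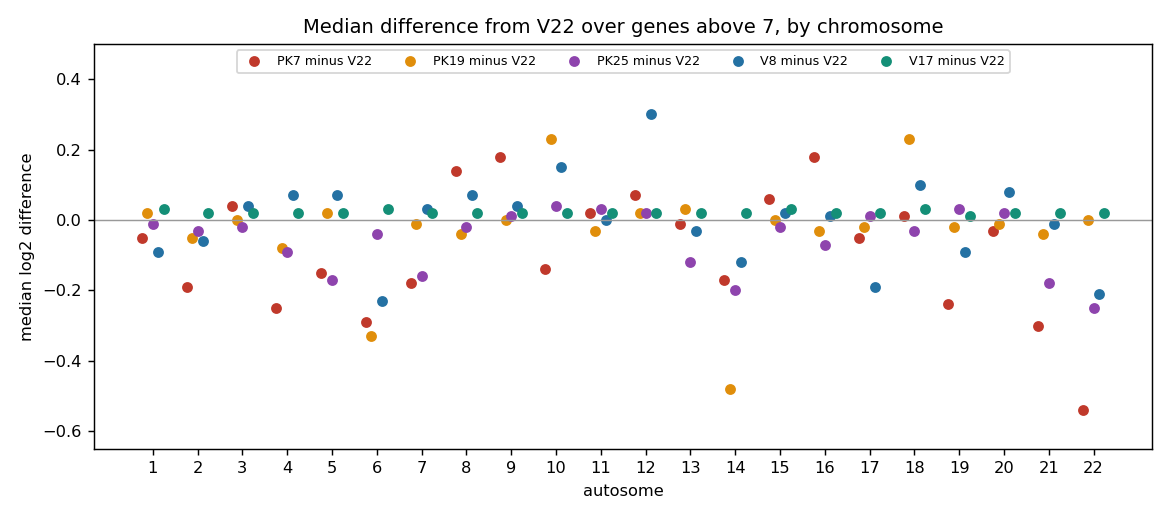
Median log2 difference from V22 of the same series (y axis) over genes with a mean above 7, for each of the 22 autosomes (x axis) and each clone (colour). Chromosome 22 is the lowest autosome in PK7 at -0.54 and in PK25 at -0.25, and V17 stays near 0 on all autosomes.

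Many of the 49 gene products work in complexes whose other subunits are encoded elsewhere. A list of 45 partner genes, 41 of them measured and none used to choose the 49, was tested in the same fit over all probe sets. The list was made with earlier results of these data known. It holds such subunits and also relatives of the 49, among them PIM1, PIM2, MAPK13, PARVA and PPP6R1. In PK7, limma called 8 of the 41 lower and 1 higher, beside 8.11% and 7.11% of all probe sets, and their median was -0.11. The 41 genes stood at a median of -0.10 in PK19 (6 lower, 1 higher), -0.03 in PK25 (1 lower, 0 higher), -0.02 in V8 (6 lower, 0 higher) and 0.03 in V17 (0 called, 0 at an unadjusted p under 0.05). Of all probe sets, 7.40% were called lower and 6.65% higher in PK19, 0.939% lower in PK25 and 4.22% lower in V8. Every measured partner except MAPK13 (5.40) had a mean above 7. Placed genes above 7 were called lower more often: 17.5% for PK7, 14.6% for PK19, 1.79% for PK25 and 7.72% for V8. The partners were not tested against these genes. The single partner called in PK25 was SF3B3, which like PHF5A belongs to SF3b, at -0.38 (limma adjusted p = 0.042). No partner was called in PK25 in 5 of the 6 fits that left out an array, and 2 were called without PK25 set 2.

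PPP6R1, a regulatory subunit of protein phosphatase 6 like PPP6R2, lies on chromosome 19 and had the largest fall among the partners in PK7. It was at 9.16, 9.20 and 9.18 in PK7, against 10.23, 10.14 and 10.17 in V22, with means of 9.18 ± 0.02 in PK7 and 10.18 ± 0.05 in V22 (SD, n = 3 arrays each, limma adjusted p = 1.4e-08), and it also fell in V8 (-0.54) and PK19 (-0.44). TUBGCP2, which joins TUBGCP6 in the gamma-tubulin ring and lies on chromosome 10, fell by 0.78 in PK7 on the log2 scale (limma adjusted p = 1.6e-05) and stood at -1.40 in PK19. FBL, the methyltransferase of the box C/D particle that also holds SNU13, was at -0.56 in PK7 (limma adjusted p = 0.00074). PARVA, the close relative of PARVB, rose by 0.38 in PK7 (limma adjusted p = 0.0036) and fell in PK19 (-1.05) and V8 (-0.54).

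The remaining calls in PK7 were closer to the threshold. NCAPG2, the condensin II partner of NCAPH2, was at -0.46 (limma adjusted p = 0.0073, and 0.054 without PK7 set 2), and KAT7, the acetyltransferase of the complex that BRD1 joins, at -0.34 (limma adjusted p = 0.01, and 0.067 without PK7 set 2). ILK, the kinase-like partner of the parvins, was at -0.32 (limma adjusted p = 0.022) and lost its call without PK7 set 1 or any 1 of the 3 V22 arrays. SF3B5 was at -0.34 (limma adjusted p = 0.028) and lost it without PK7 set 2, PK7 set 3, V22 set 4 or V22 set 6. XRCC4, an end-joining factor named after its value was seen, was at -0.47 (limma adjusted p = 0.046). Of its PK7 arrays set 2 was the lowest, and how the XRCC4 call fares without single arrays is not given here. XRCC5 encodes Ku80, the direct partner of Ku70, and stood at -0.19 in PK7 (limma adjusted p = 0.27), beside -0.65 for XRCC6. PRKDC, the DNA-dependent kinase that Ku recruits, stood at -0.00.

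Promoter sequences, from 250 bases before to 50 after the start of the gene, were found for 38 of the 49 genes in a RefSeq table of GRCh38.p14, which are not the same 38 as those with a mean above 7. The 4 printed here are of TTLL12 and NUP50, which had the largest differences in PK7, of XRCC6, the brightest gene, and of PLXNB2, which had the smallest PK7 difference among the genes with a mean above 7 and was higher in PK19. Capitals mark the matches of 3 motifs on either strand: the GC box GGGCGG (or CCGCCC), the CCAAT box (or ATTGG) and the ETS motif CCGGAAG (or CTTCCGG). The TTLL12 window is chr22:43187085-43187384 on the minus strand, that of NUP50 chr22:45163675-45163974 on the plus strand, that of XRCC6 chr22:41621045-41621344 on the plus strand and that of PLXNB2 chr22:50301620-50301919 on the minus strand.
TTLL12: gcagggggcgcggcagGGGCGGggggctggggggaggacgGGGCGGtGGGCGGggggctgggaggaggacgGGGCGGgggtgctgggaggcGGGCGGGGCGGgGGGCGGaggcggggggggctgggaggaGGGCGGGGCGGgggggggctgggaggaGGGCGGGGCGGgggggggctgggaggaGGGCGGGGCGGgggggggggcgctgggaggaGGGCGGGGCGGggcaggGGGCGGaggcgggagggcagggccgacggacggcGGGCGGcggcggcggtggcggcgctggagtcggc
NUP50: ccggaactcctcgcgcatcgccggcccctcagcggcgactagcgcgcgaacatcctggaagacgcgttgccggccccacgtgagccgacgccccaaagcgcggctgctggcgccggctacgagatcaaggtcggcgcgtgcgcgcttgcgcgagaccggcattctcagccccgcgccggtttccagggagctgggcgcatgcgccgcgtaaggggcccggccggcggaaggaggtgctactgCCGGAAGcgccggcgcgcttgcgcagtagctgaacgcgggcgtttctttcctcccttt
XRCC6: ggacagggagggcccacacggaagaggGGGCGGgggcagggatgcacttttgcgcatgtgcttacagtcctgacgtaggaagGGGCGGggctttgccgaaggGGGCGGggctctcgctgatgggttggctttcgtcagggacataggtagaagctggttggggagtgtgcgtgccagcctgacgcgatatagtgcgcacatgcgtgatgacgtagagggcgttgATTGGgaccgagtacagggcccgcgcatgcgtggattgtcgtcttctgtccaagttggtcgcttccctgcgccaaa
PLXNB2: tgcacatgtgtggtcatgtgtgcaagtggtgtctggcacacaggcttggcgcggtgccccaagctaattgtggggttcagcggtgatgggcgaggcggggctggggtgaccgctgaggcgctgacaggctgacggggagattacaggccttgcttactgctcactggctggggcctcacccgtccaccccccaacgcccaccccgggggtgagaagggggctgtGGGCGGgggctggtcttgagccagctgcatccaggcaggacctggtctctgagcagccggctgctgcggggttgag

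These 4 windows differ in what they hold. The TTLL12 window had 17 GC boxes, counting overlapping ones, in a repeated G-rich stretch, and none of the other motifs. The NUP50 window had no GC box and no CCAAT box but 1 ETS motif. XRCC6 had 3 GC boxes and 1 CCAAT box, and its window shares 249 bases with that of DESI1, which starts on the other strand, so a single stretch of DNA precedes both genes. XRCC6 and DESI1 both stood lower in PK7 (-0.65 and -0.50), and in PK19 XRCC6 was at -0.08 and DESI1 at 0.42. PLXNB2 had 1 GC box.

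Over the 38 windows, 33 (86.8%) held a GC box, against 53.1% of 527 windows of chromosome 22 and 44.6% of all 27305. The CCAAT box was in 31.6% of the 38, 32.4% of chromosome 22 and 35.7% of all and the ETS motif in 18.4%, 13.1% and 10.7%. None of the 38 held TATAAA or, on the other strand, TTTATA, which were in 6.83% of chromosome 22 windows and 12% of all. The median GC content was 74.2% in the 38, 63% on chromosome 22 and 58.3% in all. The 38 windows were not set against windows of equally expressed genes, and a match is a run of letters, with no binding measured.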

How the data were processed

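RNA of 21 U-87MG samples was hybridised to Affymetrix whole-transcript arrays. The authors deposited RMA intensity on a linear scale, per the labels, with no version. A joint normalization of all arrays is not stated in the sources used here. The intensities were turned into log2 values (no missing value, no identical columns). Symbols came from the platform annotation (1 symbol for 19305 probe sets, several for 1750, 5892 not listed) and gene order from RefSeq GRCh38.p14.

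The fit used limma 3.58.1 in R 4.3.3 (lmFit, eBayes) with a mean for each clone in each series, arrays as observations, and Benjamini-Hochberg adjustment over 26947 probe sets at 0.05. A second fit took 6 clone means, with the first series linked through V22. No depth exists for arrays, so their number limits the precision.

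The 49 genes and the partner list were chosen with earlier results of these data known. Named were TOB2 and SCO2, the 2 brightest of each role, the 4 largest and 2 smallest differences in PK7, the 5 nearest genes outside and up to 8 partners called in PK7; values per array are printed for the members among them and for PPP6R1, and differences for the others. Alternatives covered normalization, dim probe sets, the variance prior, the vector arrays used, left-out arrays or clones and a set-number block.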

Additional observations from a re-analysis of the deposited data

Results flagged for a closer look

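In RRP7A, 1 of the 6 V22 arrays, set 5, stood apart at 9.71 on the log2 scale, where the other 5 lay between 9.95 and 10.03. Its gap took 0.746 of the range, above the critical value of 0.625 for 6 arrays. The 21 named genes and 1 median gave 22 such checks, and chance alone would single out about 1 group in 20.

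For 4 genes all arrays of a parkin clone lay below the mean of the V22 arrays and all arrays of another above it, and the difference between the clones was not tested. PIM3 was at -0.50 in PK7 and -0.30 in PK25, with PK19 at 0.27. DESI1 was at -0.50 in PK7, with PK19 at 0.42. PARVB was at -0.21 in PK7 and -0.17 in PK25, with PK19 at 0.32. PLXNB2 was at -0.40 in PK25, with PK19 at 0.69. These log2 differences share the same 3 V22 arrays.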

How the results depend on the processing

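The V17 median of the 38 genes, close to 0, changed sign between settings, and the medians of the other clones did not. The median difference of the 38 genes moved to -0.47 in PK7, -0.23 in PK25 and -0.02 in V17 after quantile normalization, to -0.56 in PK7 and -0.30 in PK25 with arrays centred on their medians, and to -0.48 in PK7 over all 46 measured genes. Leaving out 1 array gave medians of -0.55 to -0.49 in PK7, -0.28 to -0.24 in PK25, -0.26 to -0.12 in V8, -0.08 to -0.03 in PK19 and -0.01 to 0.03 in V17. The number of the 46 genes called was then 24 to 30 in PK7, 0 to 3 in PK25, 1 to 7 in V8, 4 to 8 in PK19 and 0 in V17 and between the V22 series. Partners called numbered 6 to 10 in PK7, 0 to 2 in PK25, 6 to 8 in V8 and 5 to 7 in PK19. Probe sets called numbered 3134 to 3843 in PK7, 134 to 561 in PK25 (368 with all arrays), 1435 to 1993 in V8, 3053 to 3263 in PK19 and 0 to 5 between the V22 series (8 with all arrays, 0 without set 1, 4 or 6). Without the 2 arrays of highest median, PK25 set 3 and PK7 set 2 (chosen after seeing the data), 216 probe sets, 0 of the 46 genes and 0 partners were called in PK25. Partners called in PK25 were 0 with centred arrays and 2 with a trended and robust variance. Between the V22 series 3 probe sets were called with centred arrays (3 lower, 0 higher), 17 with a trended and robust variance, and 12 after quantile normalization (6 each way), beside 5 lower and 3 higher as deposited. Parkin against vector clones gave 1 to 38 probe sets when a clone was left out (38 without PK25, 3 without V8) and 0 with vector arrays of the second series only. The set numbers of the first series were tried as a replicate block. For each probe set the mean of the clone was subtracted, and the remaining deviations were correlated between arrays of different clones. These correlations of deviations lay between 0.0591 and 0.216 within sets and between -0.141 and 0.0533 across sets. Every value within sets was thus above every value across sets. The main fit did not use the set numbers, and whether they mark a pairing was not tested. With the block 3 of the 46 genes were called in V8, and 2 with the first series alone and no block, where 5 were called with all arrays. The causes were not tested. The 3 arrays of a clone, its single origin, and the link of the series through V22 limit all values. No genome build is named in the files.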
